A study of Drosophila melanogaster with 6 samples.

Results

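NAP-1 knockdown was compared directly with CBP knockdown in Drosophila melanogaster S2 cells, an embryo-derived line of male origin with features of blood cells, by sequencing messenger RNA. The 2 samples titled as NAP-1 knockdown were set against the 2 titled as CBP knockdown, 4 of the 6 samples of the series. The remaining 2, a control knockdown, entered the same statistical model and are given beside the results. All 3 groups were S2 cells grown in the same medium, and the labels name no treatment beyond the knockdown, no method of knockdown, no time after it and no clone. Nor do they state whether the replicates were separate cultures. The p-values therefore reflect the spread among these libraries, which may be technical. Levels are the authors' RPKM, reads per kilobase of transcript scaled to the reads of a library. They were summed per gene symbol, and the 4059 genes that averaged 1 RPKM or more across the 6 samples were tested, from 5390 of the 16381 features in the deposited table.

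NAP-1, encoded by Nap1, is a chaperone that carries histones and assists in placing them on and taking them off DNA. CBP, encoded by nej in flies, is an acetyltransferase that modifies histones and other proteins at enhancers and promoters and serves as a coactivator for many transcription factors. Going by its title, the study is about acetylation of linker histone H1. Setting the knockdowns against each other asks which transcripts differ between loss of the chaperone and loss of the enzyme.

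The 6 libraries had between 4162019 and 5362319 alignments. The number of tested genes at 1 RPKM or more was 3845 and 3876 in the control libraries, 3729 and 3761 in NAP-1 knockdown, and 3504 and 3067 in CBP knockdown. The 20 most abundant genes held 30.88% and 29.29% of the summed RPKM in NAP-1 knockdown and 33.01% and 38.24% in CBP knockdown, so CBP knockdown replicate 2 had the fewest detected genes and the most concentrated RNA. Of 12 markers of S2 (plasmatocyte-like) cells, 5 were among the genes tested, namely the collagens Cg25C and vkg, the receptors Pvr and crq, and the regulator ush. Their summed level was 203.9 and 223.8 RPKM in NAP-1 knockdown against 123.5 and 84.66 RPKM in CBP knockdown. Their median transcript was 5276 nt long, against 1711 nt for all genes. The difference between the knockdowns moved with transcript length, as given below, and its part in these marker levels was not tested. In RNA from whole cultures, fewer cells of a type and less RNA per cell cannot be told apart. Few markers of other cell types were among the genes tested. They were 2 of 8 for muscle (Mlc2 and sls), and 1 of 7 for fat body (Cyp4g1). For germline 1 of 8 was tested (aub), and for neurons 1 of 7 (elav). Markers averaging under 1 RPKM were not counted, and those tested summed to at most 5.7 RPKM in any library. In NAP-1 against CBP knockdown they were at 3.302 and 5.70 against 2.04 and 2.64 RPKM for muscle, 1.10 and 2.00 against 0.126 and 0.063 RPKM for fat body, 3.87 and 2.10 against 0.559 and 1.09 RPKM for germline, and 0.357 and 1.30 against 0.423 and 0.255 RPKM for neurons. The muscle sum and the single genes Cyp4g1 and aub were thus also lower in both CBP knockdown libraries. No marker of crystal cells or lamellocytes was among the genes tested. Features named by a symbol alone run alphabetically and stop at NLaz in the deposited table. Whether a marker was tested therefore also depended on its name, and its absence does not show that it was not expressed. The part that library composition and the lower marker levels have in the results below was not tested.

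The targeted genes were examined in every library. Nap1 stood at 219.6 and 242.8 RPKM in the control libraries, 20.58 and 26.52 RPKM in NAP-1 knockdown, and 325 and 365 RPKM in CBP knockdown. The libraries labelled NAP-1 knockdown were thus the lowest, with a wide gap to all others, and the difference of log2(RPKM + 1), NAP-1 minus CBP knockdown, was -3.83 ± 0.27 (SE; limma, p adjusted over all genes tested = 0.00875). Nap1 passed the threshold of 0.05 in 16 of 17 alternative settings; the other 50 called genes named by rule did so in 2 to 11 of 16 or 17, with a median of 9. The CBP gene nej stood at 3.25 and 2.47 RPKM in the control libraries, 1.26 and 2.41 RPKM in NAP-1 knockdown, and 0.899 and 0.364 RPKM in CBP knockdown. Both CBP knockdown libraries were below all others, but the difference of 0.79 ± 0.37 did not pass the test (limma adjusted p = 0.18), and with the length trend removed it was -0.28. Against control in the same model, nej was lower in CBP knockdown by a log2 difference of -1.26 (limma adjusted p = 0.0441). In that comparison 18.5% of all genes tested were called lower. The longest of 5 equal bins of transcript length, from 2955 nt up, holds nej and had a median of -1.09. The part of transcript length in the lower level of nej against control was not tested.

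Between the knockdowns, 209 genes differed at an adjusted p under 0.05 in limma. Of these, 94 were lower in NAP-1 than in CBP knockdown, 2.32% of the genes tested, and the rest, 2.83% of the genes tested, were higher. In all 209 the NAP-1 and CBP knockdown libraries did not overlap. Without a correction for multiple tests, 736 genes (18.1%) were higher and 550 (13.6%) lower at p under 0.05, and the libraries did not overlap for 1350 higher (33.3%) and 1192 lower genes (29.4%). After quantile normalization the split was 49 higher and 60 lower, and after removal of the trend with transcript length it was 74 higher and 105 lower. With replicate number as a block in the model, 1 gene was called higher and 1 lower, and the same counts were found with a pseudocount of 0.1 RPKM. With the 4 knockdown samples fitted alone, Nap1 was the only call. The number of calls changed with each library left out. Without CBP knockdown replicate 2 no gene was called, with 602 at an unadjusted p under 0.05, and without NAP-1 knockdown replicate 2 or either control library Nap1 alone was called. Without NAP-1 knockdown replicate 1 there were 149 higher and 289 lower calls, and without CBP knockdown replicate 1 there were 155 and 22. A group left with 1 library was taken to vary like the other groups in these fits.

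**Figure D1:**
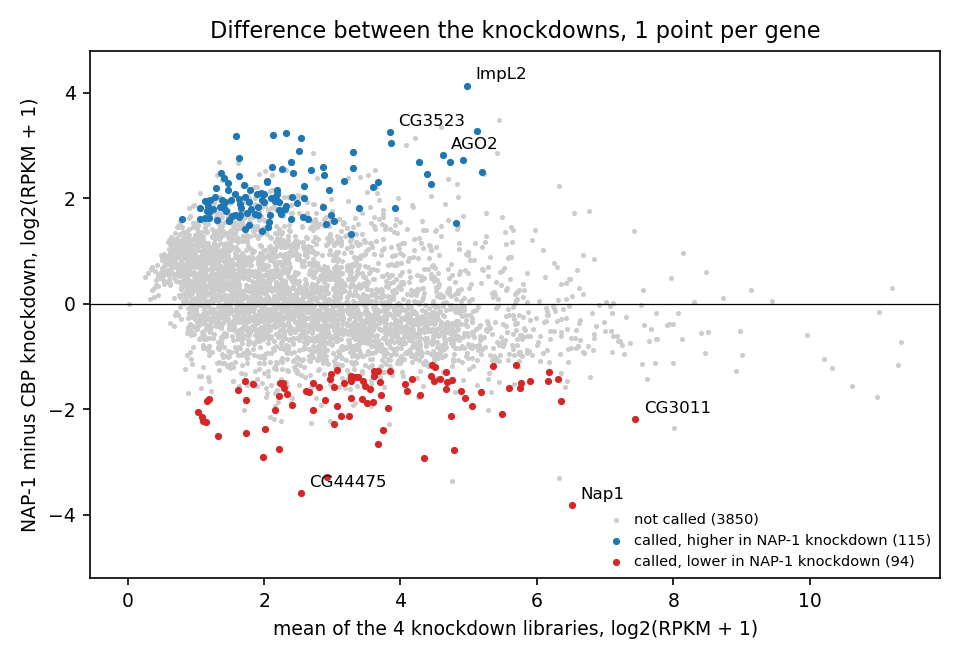
Log2 difference between NAP-1 and CBP knockdown (vertical axis) against the mean log2(RPKM + 1) of the 4 knockdown libraries (horizontal axis), 1 point per gene. Blue points are the genes called higher and red points the 94 called lower in NAP-1 knockdown, with ImpL2 the highest and Nap1 the lowest.

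The called genes were also set against the control libraries, which both knockdowns share. The median level of the higher genes was 12.01 and 9.80 RPKM in the control libraries, 6.35 and 7.74 RPKM in NAP-1 knockdown, and 1.54 and 0.614 RPKM in CBP knockdown. The median of the 94 lower genes was 4.78 and 5.43 RPKM in the control libraries, 5.78 and 4.51 RPKM in NAP-1 knockdown, and 17.25 and 19.41 RPKM in CBP knockdown. On both sides the NAP-1 knockdown medians lay nearer those of the control than the CBP knockdown medians did. Against control in the same model, 1 gene, Nap1, was called in NAP-1 knockdown (0.0246%), whereas 345 genes were called higher (8.5%) and 751 lower (18.5%) in CBP knockdown. CBP knockdown replicate 2 was the lowest of the 4 knockdown libraries in 105 of the higher genes and replicate 1 in the other 10, and the CBP knockdown mean was under 1 RPKM in 53 of these genes.

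The largest difference in favour of NAP-1 knockdown was that of ImpL2, a secreted protein that binds insulin-like peptides and restrains insulin signalling. Its level was 94.14 and 182.1 RPKM in NAP-1 knockdown and 11.61 and 3.45 RPKM in CBP knockdown, with 376.4 and 231.6 RPKM in the control libraries. The groups were far apart, at a log2 difference of 4.14 ± 0.56 (limma adjusted p = 0.0358), and both knockdowns lay below control. CG3523, the fatty acid synthase, stood at 53.13 and 35.25 RPKM in NAP-1 knockdown and 5.16 and 2.49 RPKM in CBP knockdown, a difference of 3.26 ± 0.39 (limma adjusted p = 0.0358). Its NAP-1 knockdown values bracketed the lower of the control values of 70.24 and 47.4 RPKM. The nucleolar protein gene mod stood at 15.6 and 17 RPKM in NAP-1 knockdown and 2.35 and 0.154 RPKM in CBP knockdown. Control replicate 1 was far above control replicate 2 for mod, at 64.15 against 21.96 RPKM.

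AGO2, the Argonaute protein that cleaves targets in RNA interference, stood at 61.09 and 67.46 RPKM in NAP-1 knockdown and 14.82 and 4.42 RPKM in CBP knockdown. The log2 difference was 2.82 ± 0.50 (limma adjusted p = 0.0444), and the control libraries, at 115.4 and 74.8 RPKM, were the highest. The remaining genes among the 12 largest in this direction were Yeti, CG7564, CG17454, CG3107, vsg, stai, CG4511 and fray, with differences from 2.77 to 3.27. Of these, stai encodes stathmin, which destabilises microtubules, and fray a Ste20-family kinase. CG17454 was listed at 0.000248 and 0 RPKM in CBP knockdown against 5.55 and 11.49 RPKM in NAP-1 knockdown. Values as close to 0 were also listed in CBP knockdown replicate 2 for hay, a general transcription and repair gene, and how reads were divided among features is not given in the sources used here. Yeti was more abundant, with 77.81 and 148.4 RPKM in NAP-1 knockdown against 20.51 and 4.87 RPKM in CBP knockdown.

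**Figure D2:**
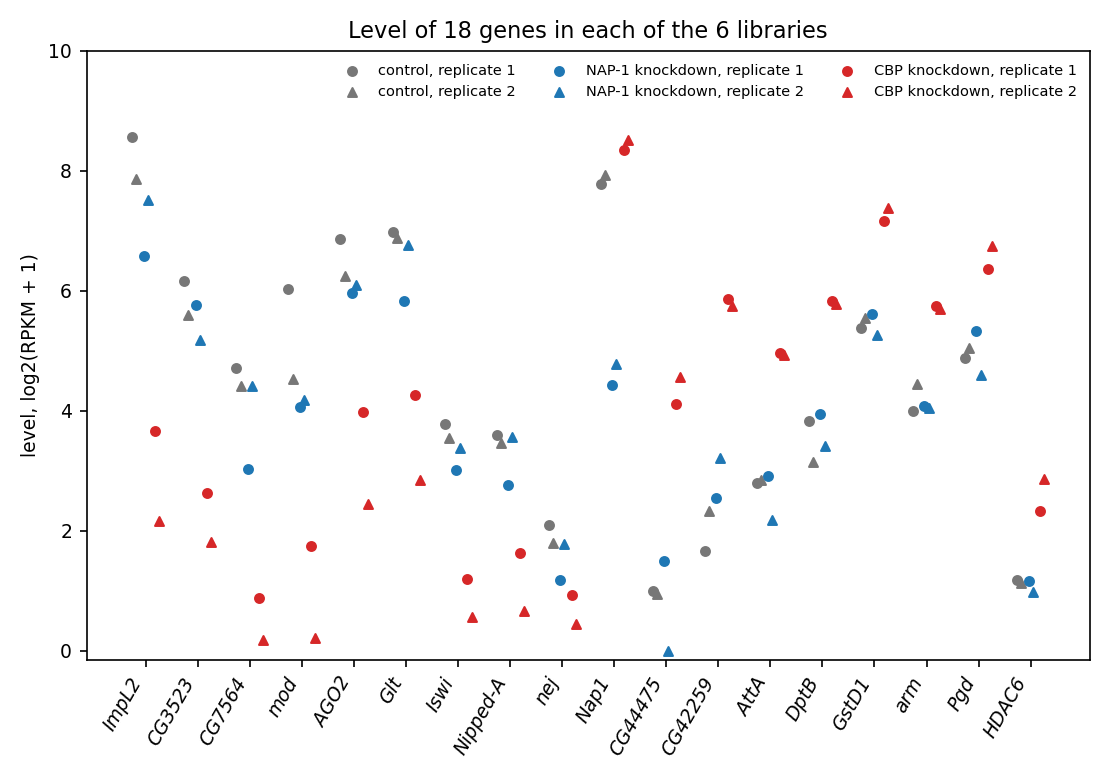
Levels of 18 named genes as log2(RPKM + 1) in each library, with grey for control, blue for NAP-1 knockdown and red for CBP knockdown, and circles and triangles for replicates 1 and 2. From ImpL2 to Nipped-A the red points lie below the blue, from CG44475 to HDAC6 they lie above, and at Nap1 the blue points alone are low.

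In the opposite direction, several of the largest differences after Nap1 belonged to genes that were scarce in control and NAP-1 knockdown cells. CG44475 was at 1.82 and 0 RPKM in NAP-1 knockdown and 16.31 and 22.67 RPKM in CBP knockdown, a log2 difference of -3.59 ± 0.50 (limma adjusted p = 0.0358). CG42792 was at 2.15 and 0.874 RPKM in NAP-1 knockdown and 27.05 and 19.06 RPKM in CBP knockdown. The X-linked gene CG42259 was at 4.81 and 8.30 RPKM against 57.33 and 52.71 RPKM. Among the 12 largest, CG44475, CG4586, CG16713, CG15210, GstD2 and CG14227 reached the mean of 1 RPKM required for testing only through the CBP knockdown libraries. In 14 of the 94 lower genes, 8 of them X-linked, the mean of the 4 other libraries was under 1 RPKM, so the filter itself required CBP knockdown to be the higher. For CG44475, CG42792 and CG42259 the knockdowns did not overlap, and the control values of all 3 genes, between 0.812 and 4.02 RPKM, lay near those of NAP-1 knockdown. CG4586, CG11655, CG16713, CG13559, CG15210, GstD2, AttA and CG14227 completed the 12, with differences from -2.91 to -2.38.

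Most of the genes that were lower in NAP-1 than in CBP knockdown lie on the X chromosome. Of the 94 genes, 68 (72.3%) are X-linked, against 747 of the 4059 genes tested (18.4%) and 6 of the higher genes (5.22%). Like the calls as a whole, this count changed with the libraries and settings. No X-linked gene was called lower without either control library, NAP-1 knockdown replicate 2 or CBP knockdown replicate 2, with a pseudocount of 0.1 RPKM or with the 4 knockdown samples alone, and there were 11 without CBP knockdown replicate 1 and 119 without NAP-1 knockdown replicate 1. The chromosomes were looked up after the called genes had been seen, so these shares are a description. Called lower were 9.1% of X-linked and 0.763% of 3277 autosomal genes, beside 2.32% of all genes. Called higher were 0.803% of X-linked and 3.3% of autosomal genes. The NAP-1 knockdown libraries lay wholly below those of CBP knockdown for 50.3% of X-linked and 24.6% of autosomal genes, against 29.4% of all genes.

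The shift was not confined to the called genes. The median log2 difference of X-linked genes was -0.37 (quartiles -0.95 and 0.41), and that of each large autosomal arm was above 0, at 0.24 on 2L, 0.17 on 2R, 0.24 on 3L and 0.06 on 3R. Chromosome 4, with 21 genes tested, had a median of 0.42. Split into 12 consecutive blocks of 62 or 63 genes, the X had a median below 0 in 11, from -0.75 to 0.21. The blocks show the lower values along almost the whole chromosome, whereas 1 of 12 blocks on 2L and 6 of 12 on 3R were below 0. All 4 pairings of a NAP-1 with a CBP knockdown library gave an X median below the autosomal median, with differences of -0.52, -0.62, -0.49 and -0.53. Between replicates of a group the same quantity, replicate 2 minus replicate 1, was 0.0392 in control, 0.092 in NAP-1 knockdown and 0.0702 in CBP knockdown.

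The same contrast was computed within each library. X-linked genes held 17.24% and 15.87% of the summed RPKM in the control libraries, 17.84% and 14.57% in NAP-1 knockdown, and 23.95% and 24.48% in CBP knockdown. The median log2 level of X-linked genes minus the autosomal median was -0.29 and -0.20 in control and -0.23 and -0.13 in NAP-1 knockdown. In CBP knockdown it was 0.34 and 0.41. By both measures the CBP knockdown libraries stood apart from the other 4. The labels do not say whether the 3 groups came from 1 stock of S2 cells, and a difference between stocks and one between knockdowns cannot be told apart. With 2 libraries against 2, an exact two-sided permutation test cannot give a p below 0.333. Against control, the median of X-linked genes was -0.09 in NAP-1 and 0.35 in CBP knockdown, and that of autosomal genes -0.14 and -0.27, comparisons that share the control libraries.

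**Figure D3:**
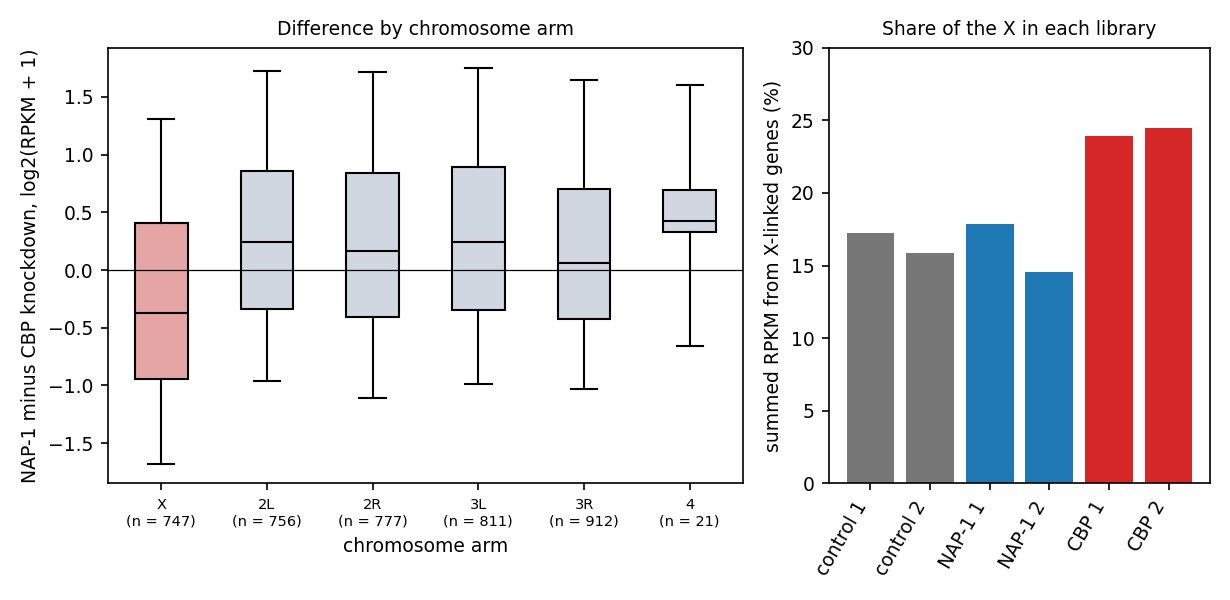
Left, log2 difference between NAP-1 and CBP knockdown by chromosome arm, with boxes from the lower to the upper quartile, a line at the median and whiskers from the 5th to the 95th percentile of genes. Right, X-linked genes as a percentage of summed RPKM in each library, with both CBP knockdown libraries above the other 4.

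The 68 X-linked genes called lower had a median log2 difference of -1.60, from -2.93 to -1.16. Their mean RPKM was higher in CBP than in NAP-1 knockdown by a median of 3.53-fold (quartiles 2.89 and 4.42), and the median ratio of NAP-1 knockdown to control was 1.10. The size of the difference between the knockdowns follows in part from the choice of called genes. Over all X-linked genes tested the median log2 difference was -0.37. For 8 of the 68 the filter itself required CBP knockdown to be the higher. Of the 68, 46 have no symbol beyond a CG or CR number. The share of such symbols over all genes tested was not computed, so this count is no trait particular to these genes. The gene arm, which encodes beta-catenin of Wnt signalling and cell junctions, was at 15.98 and 15.43 RPKM in NAP-1 knockdown and 52.78 and 50.96 RPKM in CBP knockdown, a difference of -1.66 ± 0.26 (limma adjusted p = 0.0407). Its replicates were close together and the control values, 14.94 and 20.75 RPKM, spanned those of NAP-1 knockdown. The histone chaperone gene Hira, whose product deposits the replacement histone H3.3, was at 5.58 and 4.41 RPKM against 13.77 and 15.85 RPKM, a difference of -1.40 ± 0.27 (limma adjusted p = 0.0452). HDAC6, a deacetylase that acts mainly on cytoplasmic proteins such as tubulin, was at 1.23 and 0.969 RPKM against 4.01 and 6.28 RPKM. These genes shared the pattern of similar values in 4 libraries and higher values in the 2 of CBP knockdown.

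Further X-linked genes of known function, picked from the called ones after their values were seen, illustrate the range of levels. Dsor1, the MAP kinase kinase of the Ras pathway, was at 5.03 and 5.44 RPKM in NAP-1 knockdown and 13.95 and 16.61 RPKM in CBP knockdown. The coatomer subunit gene deltaCOP was at 52.53 and 42.34 RPKM against 110.7 and 149.4 RPKM. For car, which encodes a protein of lysosomal fusion, the values were 0.93 and 0.563 RPKM against 4.02 and 4.76 RPKM. Their order and lack of overlap follow from that choice. The 6 X-linked genes called higher were CG3726, CR45197, CR45517, Hex-A, fog and rut; rut, an adenylyl cyclase, was at 9.62 and 12.78 RPKM in NAP-1 knockdown and 3.34 and 1.09 RPKM in CBP knockdown. In male flies the MSL complex, which contains the acetyltransferase mof, raises transcription of the X. The genes msl-1, msl-2, msl-3, mle and mof were not among those tested here. Their symbols come after the point where features named by a symbol alone stop in the deposited table. Their absence therefore does not show that they were not expressed.

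The X also stood below the autosomes when genes were compared at like abundance and like length. In 5 equal bins of mean RPKM, the X median was 0.21, -0.24, -0.34, -0.63 and -0.74 from the scarcest to the most abundant genes, and the autosomal median was 0.44, 0.36, 0.14, -0.02 and -0.25. In 5 equal bins of transcript length, the X median rose from -0.58 in the shortest to 0.22 in the longest and the autosomal median from -0.12 to 0.81. The X was lower in all 10 of these bins. Over all genes the X median minus the autosomal median was -0.54, and in the alternatives tried it lay between -0.68 with a pseudocount of 0.1 RPKM and -0.28 with 5 RPKM.

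Transcript length moved with the difference over the genome as a whole. The median log2 difference was -0.20 in genes up to 970 nt, -0.20 and -0.06 in the next bins, 0.27 in genes of 2027 to 2954 nt and 0.71 in longer ones, and Spearman's rho across 4028 genes was 0.316. The median length was 2959 nt for the higher genes and 1633 nt for the 94 lower ones, against 1711 nt for all genes. Length also separated replicates: rho was 0.2436 to 0.3413 for the 4 pairings of NAP-1 with CBP knockdown libraries, and -0.2841 for replicate 2 against replicate 1 of CBP knockdown, -0.265 for control and 0.1205 for NAP-1 knockdown. Genes in a library share its length trend, and the genes are not independent replicates. Of the 209 calls, 142 were also made with the length trend removed, and its part in the other calls was not tested. Among the 51 called genes named by rule, 15 missed the threshold with the trend removed, at limma adjusted p from 0.0517 to 0.10, and kept their direction. They were Aats-glupro, Atg13, Bap60, CycA, Eip63E, Hem, Hex-A, LanB1, Nipped-A, Pgd, Pi3K21B, Top2, hay, tko and tou.

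**Figure D4:**
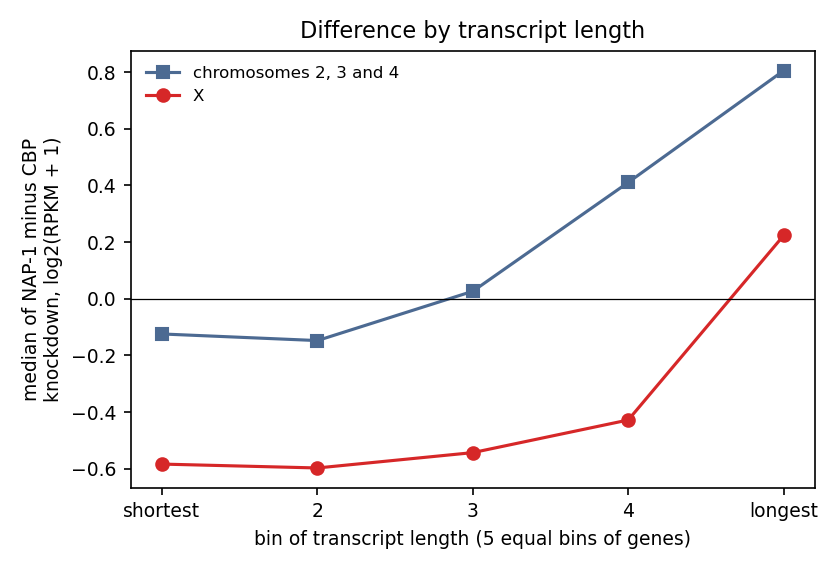
Median log2 difference between NAP-1 and CBP knockdown in 5 equal bins of genes by transcript length, for chromosomes 2, 3 and 4 (blue squares) and the X (red circles). Both lines rise towards long transcripts, and the X line is the lower in every bin.

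For the counts of called members in the groups below, the shares over all genes tested were 2.83% called higher and 2.32% called lower. Among chromatin genes, the nucleosome remodelling group had calls in both directions. Of 16 nucleosome remodelling genes tested, 3 were called higher and 1 lower in NAP-1 knockdown, with a median of 0.28 that turned to -0.44 with the length trend removed. Iswi, the ATPase shared by several nucleosome-sliding complexes, was at 7.07 and 9.44 RPKM in NAP-1 knockdown and 1.28 and 0.481 RPKM in CBP knockdown, a difference of 2.32 ± 0.33 (limma adjusted p = 0.0358). Bap170, a subunit of one form of the Brahma remodelling complex, was at 7.28 and 8.84 RPKM against 1.61 and 0.962 RPKM. The X-linked gene of the common Brahma subunit Bap60 went the other way, at 36.3 and 31.13 RPKM against 70.2 and 83.4 RPKM. The other higher member, tou, was at 3.14 and 3.47 RPKM against 0.298 and 0.0913 RPKM, a difference of 1.85 that was 0.84 with the length trend removed.

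Of 11 genes of histone acetyltransferases and their complexes, Nipped-A, the large scaffold protein of the SAGA and Tip60 complexes, was the only one called. It was at 5.79 and 10.86 RPKM in NAP-1 knockdown and 2.10 and 0.586 RPKM in CBP knockdown, and its difference of 2.02 was 0.98 with the length trend removed. The group's median was -0.34 against 0.09 for all genes, and 7 of the 11 had NAP-1 knockdown libraries wholly below those of CBP knockdown, against 29.4% of all genes and 50.3% of X-linked genes, which 5 of the 11 are. Of 12 deacetylase and corepressor genes, the X-linked HDAC6 and CG3815 were called lower and none higher. Their group median was 0.48, and -0.17 with the length trend removed. Of 9 histone chaperone genes Nap1 and the X-linked Hira were called lower. As the target of the knockdown, Nap1 does not count as a result about the group. No other member was called.

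None of the 4 replacement histone genes tested was called, although their median was 1.15. His2Av, the fly H2A.Z, was at 12.11 and 20.47 RPKM in NAP-1 knockdown and 7.83 and 5.31 RPKM in CBP knockdown, without overlap (limma adjusted p = 0.0793). The H3.3 gene His3.3B was at 22.81 and 97.55 RPKM against 21.35 and 6.65 RPKM, where NAP-1 knockdown replicate 1 lay next to the CBP knockdown values. No member was called among 10 heterochromatin, 14 insulator and GAGA, and 26 Mediator genes, whose medians were 0.30, 0.51 and 0.10. With the length trend removed these medians were 0.11, 0.22 and -0.0081. Of 8 signalling factors known to use CBP as coactivator, arm was the only one called, and their median was 0.11. The X-linked sd went the other way, at 3.11 and 4.94 RPKM in NAP-1 knockdown against 0.936 and 0.2825 RPKM (limma adjusted p = 0.0539). The NAP-1 knockdown libraries lay wholly above those of CBP knockdown for 4 of the 8 and wholly below for 3. Among all genes these shares were 33.3% and 29.4%.

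Metabolic genes gave calls on both sides. Of 10 genes of fatty acid synthesis and its control, CG3523 and Acsl were called higher and none lower, with a median of 0.42 that became -0.10 with the length trend removed. Acsl, which activates long-chain fatty acids, was at 16.73 and 14.09 RPKM in NAP-1 knockdown and 3.71 and 1.89 RPKM in CBP knockdown, a difference of 2.15 ± 0.38 (limma adjusted p = 0.0444). In glycolysis and its side branches, Hex-A was called higher and Pgd lower among 10 genes. Hexokinase Hex-A, which takes glucose into the pathway, was at 6.86 and 19.44 RPKM against 2.27 and 0.558 RPKM, and Pgd, an enzyme of the pentose phosphate branch, at 39.38 and 23.02 RPKM against 81.44 and 106.4 RPKM. Both are X-linked and moved in opposite directions, and the median of the 10 was -0.80.

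Genes of the mitochondrion, most with short transcripts, had medians below that of all genes. None of 43 oxidative phosphorylation genes was called, their median was -0.42 (-0.23 after quantile normalization, -0.26 with the length trend removed), and 18 had NAP-1 knockdown libraries wholly below those of CBP knockdown and 6 wholly above, 41.9% and 14% of them. The background for the same counts was 29.4% and 33.3% of all genes, and the median transcript of the group was 713 nt long. Of 14 mitochondrial ribosomal protein genes, tko, the X-linked gene of a small-subunit protein, was called lower, at 6.85 and 6.90 RPKM against 16.81 and 19.62 RPKM. In the same group mRpS5, not called, went the other way, at 27.82 and 22.71 RPKM against 9.25 and 2.61 RPKM (limma adjusted p = 0.0573). Among 27 cytosolic ribosomal protein genes none was called, and the median was -0.18, or 0.03 after quantile normalization. The 2 members with the smallest p lay on opposite sides: RpL7-like was at 1.38 and 3.77 RPKM in NAP-1 knockdown against 0.374 and 0.245 RPKM in CBP knockdown (limma adjusted p = 0.11), and the X-linked RpL37a was at 1539 and 546.2 RPKM against 2402 and 3019 RPKM (limma adjusted p = 0.12).

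Outside the X, the genes called lower in NAP-1 knockdown included 2 antimicrobial peptide genes and 2 glutathione S-transferase genes. Of 10 antimicrobial peptide genes, 2 were called lower and none higher, beside 2.32% and 2.83% of all genes. Their median of -0.97 lay between -1.08 and -0.86 under other scalings and with the length trend removed. AttA, an attacin, was at 6.53 and 3.54 RPKM in NAP-1 knockdown and 30.3 and 29.31 RPKM in CBP knockdown, a difference of -2.40 ± 0.31 (limma adjusted p = 0.0358). DptB, a diptericin, was at 14.36 and 9.68 RPKM against 55.63 and 53.88 RPKM, a difference of -2.12 ± 0.33 (limma adjusted p = 0.0386). For both genes the CBP knockdown replicates were nearly equal, and the control values, 5.93 and 6.15 RPKM for AttA and 13.24 and 7.81 RPKM for DptB, overlapped those of NAP-1 knockdown. AttA has a close copy in AttB, at -1.11 and not called, and how reads were divided between them is not given in the sources used here.

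Of 20 glutathione S-transferase genes, GstD1 and GstD2 were called lower and none higher, with a median of -0.35. GstD1, an abundant detoxifying enzyme, was at 48.15 and 37.3 RPKM in NAP-1 knockdown and 142.9 and 166.2 RPKM in CBP knockdown, a difference of -1.84 ± 0.27 (limma adjusted p = 0.0358). Its neighbour GstD2 was at 1.01 and 0 RPKM against 6.80 and 6.67 RPKM, and with control values of 0.276 and 0.511 RPKM it is among the genes that passed the filter only through CBP knockdown. Again the control values, 40.66 and 45.76 RPKM for GstD1, lay with NAP-1 knockdown. In the Toll and Imd pathways none of 12 genes was called. The X-linked caspase gene Dredd was at 1.31 and 1.26 RPKM against 4 and 3.96 RPKM (limma adjusted p = 0.0676), and tub, an adaptor of Toll, was at 9.24 and 8.09 RPKM against 3.57 and 0.876 RPKM (limma adjusted p = 0.0639).

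Genes of signalling, the extracellular matrix and blood cell identity formed groups with medians above that of all genes, several with long transcripts. Of 8 extracellular matrix genes, 2 were called higher and none lower, and 6 had NAP-1 knockdown libraries wholly above those of CBP knockdown, against 33.3% of all genes. Their median was 1.13, and 0.62 with the length trend removed, and the median transcript was 6046 nt long. Glt, a secreted glycoprotein of basement membranes, was at 55.63 and 107.4 RPKM in NAP-1 knockdown and 18.2 and 6.22 RPKM in CBP knockdown, a difference of 2.73 ± 0.51 (limma adjusted p = 0.0446). The laminin subunit gene LanB1 was at 4.27 and 5.11 RPKM against 1.08 and 2.25e-08 RPKM.

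None of 8 genes of blood cell identity and phagocytosis was called, and their median was 1.06. The collagen gene vkg is also in the matrix group. The regulator ush was at 1.70 and 3.34 RPKM in NAP-1 knockdown and 0.288 and 0.158 RPKM in CBP knockdown (limma adjusted p = 0.0573), and the GTPase gene Cdc42 was at 20.03 and 41.36 RPKM against 8.13 and 1.91 RPKM (limma adjusted p = 0.0518). Of 7 insulin and TOR genes, ImpL2 and Pi3K21B were called higher. Pi3K21B, the regulatory subunit of phosphoinositide 3-kinase, was at 4.46 and 6.80 RPKM against 1.10 and 0.668 RPKM. The median of the 7 was 1.12, or 0.71 with the length trend removed and 0.68 after quantile normalization, with 1 call in place of 2 in either case. Of 9 JNK pathway genes none was called, with a median of 0.71 that fell to 0.11 without the length trend; the Fos gene kay was at 50.42 and 68.64 RPKM against 35.62 and 15.48 RPKM.

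Hormone and cytokine genes were divided. Of 10 ecdysone and juvenile hormone genes, Eip63E was called higher and Hr78 lower. Eip63E, a cyclin-dependent kinase first known as an ecdysone-induced transcript, was at 6.81 and 8.48 RPKM in NAP-1 knockdown and 2.56 and 0.751 RPKM in CBP knockdown. The nuclear receptor Hr78 was at 1.30 and 2.42 RPKM against 8.24 and 8.12 RPKM, a difference of -1.71 ± 0.31 (limma adjusted p = 0.0444). Unlike most lower genes, Hr78 had control values of 5.11 and 5.43 RPKM, which lay between the knockdowns. Of 6 JAK-STAT and stress peptide genes, CG13559 was called lower, at 5.98 and 2.68 RPKM against 28.47 and 33.78 RPKM. The virus-induced gene vir-1 was at 161.7 and 176.1 RPKM against 71.7 and 35.89 RPKM and fell just short of the threshold (limma adjusted p = 0.0515).

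Cell division genes gave 1 or no call in each group. CycA, the cyclin of S phase and early mitosis, was called higher among 16 mitosis genes, at 9.22 and 10.62 RPKM in NAP-1 knockdown and 3.78 and 1.66 RPKM in CBP knockdown. The checkpoint kinase gene BubR1 was at 3.27 and 2.25 RPKM against 0.385 and 0.172 RPKM (limma adjusted p = 0.0573). Among 18 replication genes Top2, the topoisomerase that untangles DNA, was called higher at 6.76 and 6.56 RPKM against 1.74 and 0.185 RPKM. The helicase subunit gene Mcm3, which is X-linked, was at 8.73 and 6.62 RPKM against 15.38 and 15.72 RPKM (limma adjusted p = 0.0754). Of 10 repair and apoptosis genes the TFIIH helicase hay was called higher, at 5.32 and 1.94 RPKM against 0.247 and 1.76e-12 RPKM. With the length trend removed the differences of CycA, Top2 and hay went from 1.61, 2.09 and 1.95 to 1.25, 1.35 and 1.64.

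Genes of RNA, protein and cell structure completed the groups. Of 9 small RNA pathway genes, AGO2 was called higher, 7 had NAP-1 knockdown libraries wholly above those of CBP knockdown (33.3% of all genes did), and the median of 0.86 fell to 0.07 with the length trend removed. Among 21 nucleolar and RNA-binding protein genes, mod and CG7564 were called higher and the median was -0.05. The glutamyl-prolyl-tRNA synthetase gene Aats-glupro was called higher among 22 tRNA synthetase genes, at 9.07 and 5.39 RPKM against 1.21 and 0.565 RPKM. Of 20 genes of actin, the Arp2/3 complex and their regulators, Hem and ena were called higher. The gene ena, whose product promotes filament elongation, was at 3.53 and 7.21 RPKM against 0.323 and 0.0245 RPKM. Atg13, of the kinase complex that starts autophagy, was called higher among 16 autophagy genes at 6.50 and 10.23 RPKM against 2.59 and 0.967 RPKM. No call was made among 21 heat shock and co-chaperone, 13 ER folding, 10 antioxidant, 7 isoprenoid and 6 proteasome genes.

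**Figure D5:**
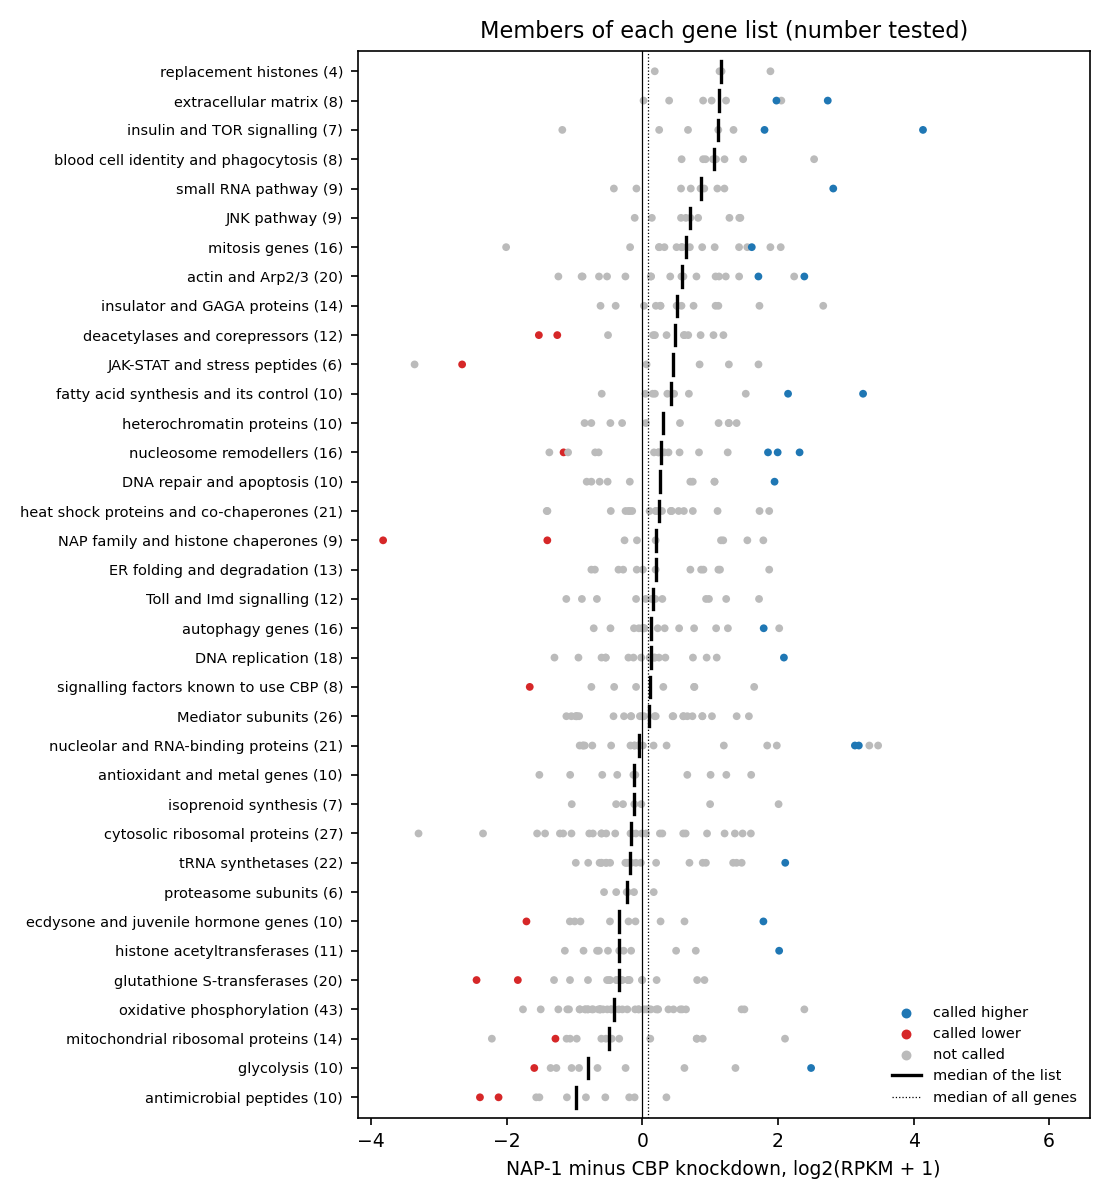
Log2 difference between NAP-1 and CBP knockdown for every tested member of 36 gene lists, ordered by their medians (black bars), with the number tested in brackets. Blue and red points passed the test; antimicrobial peptides had the lowest median and replacement histones the highest.

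Some values rest on how reads were assigned. Of the 89 genes chosen by rule for naming, 24 overlap a gene on the other strand and 13 one on the same strand in the current annotation. These include arm with mRpL16, Pgd with bcn92, AGO2 with CG7739 and ImpL2 with CG46460. The library kit keeps strand, per the labels, but whether counting used it is not given in the sources used here.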

How the data were processed

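The deposited table holds the authors' RPKM values per feature for the 6 samples, together with a count of alignments per sample. The submitters' processing notes name the build dm3. Neither the aligner nor the counter is given in the sources used here. Per the labels, libraries were made from total RNA with a stranded messenger RNA kit.

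Features sharing a symbol were summed, leaving out those under 1% of their gene's mean and 1 gene whose name ends in an apostrophe. This gave 4093 genes with a mean of at least 1 RPKM; 34 that repeated another gene's values were dropped. Sums cover listed features only, and 841 genes had more than 1. Features named by a symbol alone run alphabetically to NLaz, so genes with later symbols have RefSeq mRNA features only, and both a gene's RPKM and its presence among those tested can depend on its name. Symbols were matched to RefSeq for 4028 genes. Chromosome arms, gene order and transcript lengths (median over BDGP6 transcripts) come from release 6, so no coordinates are given.

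limma 3.58.1 in R 4.3.3 was fitted to log2(RPKM + 1) with 3 group means over all 6 samples, a variance trend and Benjamini-Hochberg adjustment over 4059 genes at 0.05; differences on this scale understate those of scarce genes. The fit was tested on simulated data. RPKM are not counts, so no count model was used. Genes chosen by rule for naming were Nap1, nej, the 12 largest calls per direction without overlap and every called member of 36 lists. The 2 members with the smallest p in each list were also chosen, and some of these that were not called are left out above. Dsor1, deltaCOP, car, AttB and the X-linked genes called higher were named after their values were seen. The comparison, members and lists were chosen with earlier results of these data known.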

Additional observations from a re-analysis of the deposited data

How the results depend on the processing

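The counts of calls depended on most choices. Of the 89 genes chosen by rule, 1 turned its direction in any of up to 17 alternatives. That gene was nej, which was not called and went from 0.79 to -0.28 with the length trend removed. The other genes were chosen for being called or for the smallest p in a list. The alternatives use the same values, so the kept direction of these genes follows in part from that choice. Against 209 calls (94 of them lower, 68 of these X-linked), a pseudocount of 0.1 RPKM gave 2 calls (1 higher, 1 lower, 0 X-linked lower), and one of 5 RPKM gave 58 higher. A mean of at least 5 RPKM gave 126 (59 higher), and a minimum per feature 71 higher. Quantile normalization, which moved the median of all genes from 0.09 to -0.06, gave 109 (49 higher, 60 lower, 39 X-linked lower). Without a variance trend there were 102 (48 higher, 54 lower, 37 X-linked lower), and with the length trend removed, which moved the median to -0.05, 74 higher. The 4 knockdown samples alone gave 1 (0 higher, 1 lower, 0 X-linked lower). A threshold of 0.10 gave 741 (433 higher, 308 lower, 167 X-linked lower). Leaving out 1 library at a time gave 0 to 438 calls, 0 to 155 higher, 0 to 289 lower and 0 to 119 X-linked lower. Deviations of same-numbered samples from their group means correlated at 0.244 for control with NAP-1 knockdown and 0.145 for control with CBP knockdown. For NAP-1 with CBP knockdown the correlation was -0.247. With 2 samples a group these values cannot settle whether replicate numbers pair the samples. The replicate block gave 2 calls (1 higher, 1 lower, 0 X-linked lower). With the CBP knockdown numbers crossed, a pairing tried after seeing the data, it gave 472 (301 higher, 171 lower, 106 X-linked lower). The X median less the autosomal median, also examined after seeing the data, was -0.54, and -0.68 and -0.28 with pseudocounts of 0.1 and 5 RPKM, -0.45 after quantile normalization and from -0.61 to -0.52 with 1 library left out. The rho with transcript length, 0.316, was 0.253 at a mean of at least 5 RPKM and 0.017 once the trend was removed. A fit with no minimum was not run, since genes under 1 RPKM were not summed here. With 2 samples a group and 4162019 to 5362319 alignments, the precision for scarce genes is limited. The cause of these changes was not tested.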
